A study of Rattus norvegicus with 21 samples.

Results

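Glutathione S-transferases of the rat liver were followed through 21 arrays of a rat study in which the carcinogen diethylnitrosamine (DEN) was given with or without erlotinib. The 10 genes were Gstp1, Gsta3, Gsta4, Gstm1, Gstm2, Gstt1, Gstt2, Gstk1, Mgst1 and Mgst2. Every probe that the platform annotation assigns to one of these symbols was taken, which gave 12 of the 22523 probes on the array, 3 for Gstp1 and 1 for each other gene. By gene these are 10 of 13337 symbols with a probe. All 12 passed the filter on low intensities, as did 19685 probes in all.

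The livers came from male Wistar rats, and the tissue analysed was outside the tumours. DEN or phosphate-buffered saline (PBS) was injected into the peritoneum once a week. At the time point labelled week 12 there were 3 groups of 3 arrays: PBS (rats PBS_7, PBS_108 and PBS_110), DEN at 50 mg/kg, called DEN 50 (rats DEN_11, DEN_14 and DEN_51), and DEN at 100 mg/kg, called DEN 100 (rats DEN_111, DEN_112 and DEN_113). At the time point labelled week 18 there were 4 groups of 3: PBS (rats 8, 9 and 18), and 3 groups that all carried DEN 50. Of these, 1 received vehicle (rats 24, 59 and 69), 1 received erlotinib at 0.5 mg/kg (rats 73, 74 and 79) and 1 received erlotinib at 2 mg/kg (rats 27, 29 and 31), from week 13 to week 18. Erlotinib is a kinase inhibitor aimed at the receptor for epidermal growth factor. The PBS rats of week 18 had no vehicle injections. The 0.5 and 2 mg/kg doses belonged to separate studies whose vehicle rats were pooled, so dose and study cannot be told apart. Each rat number was read as a separate animal. The labels do not say so outright. The p-values rest on the spread between arrays within groups, estimated over all 7 groups together, and that spread may be technical.

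Glutathione S-transferases join the tripeptide glutathione to electrophiles such as products of lipid peroxidation and activated carcinogens, and the conjugates are pumped out of the cell and trimmed to mercapturic acids. The soluble enzymes are grouped in classes, here pi (Gstp1), alpha (Gsta3 and Gsta4), mu (Gstm1 and Gstm2) and theta (Gstt1 and Gstt2). Gstk1 is the kappa enzyme of mitochondria and peroxisomes, and Mgst1 and Mgst2 are membrane proteins of a separate family. The placental form Gstp1 is scarce in normal rat hepatocytes and is a classical marker of the altered foci that precede rat liver tumours. Several, though not all, alpha and mu enzymes are abundant in normal hepatocytes. Many of these genes are known targets of the stress-responsive factor NRF2.

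Levels are log2 intensities after background correction and quantile normalization, and changes are differences of group means on that scale ± SE. A change was called at a Benjamini-Hochberg adjusted p under 0.05 from limma over all 19685 probes. Raw array medians ranged from 105 to 186.9, and pairs of arrays within a group correlated at 0.975 to 0.991. Hepatocyte genes were strong in every group, with Alb at means of 14.74 to 15.08. The third principal component, 4.81% of the variance, set vehicle array 24 apart from vehicle arrays 59 and 69, at 34.8 against -1.31 and -0.36. Leaving out array 24 changed no call among the 12 probes, and several of the values it moved are also given without it. Scaling the arrays on bright probes moved the median change of all probes by -0.49 for DEN 50 and -0.20 for DEN 100 against PBS at week 12, by 0.29 between the doses and by -0.34 for vehicle against PBS at week 18. With that scaling 35.4% of the DEN 50 calls at week 12 were upward and with median scaling 89.6%, against 52.9% here. No call on a member changed direction under any of these scalings. In whole tissue, fewer cells of a type and less RNA per cell cannot be told apart.

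Promoter sequence from RefSeq (assembly GRCr8, windows of 250 bases before and 50 after an annotated start) was at hand for 7 of the 10 genes, in 8 windows. The 150 bases before the start are shown for the genes at the ends of the range described below, Gstp1 and Gsta3 with the largest rises, Gstm2 with lower levels in DEN 100, and Mgst1 with a nearly constant level. Capitals mark the core of the antioxidant response element, to which NRF2 binds (TGACNNNGC), or a loose AP-1 pattern (TGANTCA), searched on both strands. The AP-1 pattern leaves the middle base open, so a match to it need not be an AP-1 site.
Gstp1, chr1:210769706-210769855, minus strand: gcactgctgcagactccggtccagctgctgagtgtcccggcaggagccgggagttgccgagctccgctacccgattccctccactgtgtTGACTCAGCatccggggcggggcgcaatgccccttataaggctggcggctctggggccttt
Gsta3, chr9:31154839-31154988, plus strand: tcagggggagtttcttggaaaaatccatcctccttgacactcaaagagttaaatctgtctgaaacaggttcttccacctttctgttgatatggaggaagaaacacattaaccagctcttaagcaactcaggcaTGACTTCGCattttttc
Gstm2, chr2:198316918-198317067, minus strand: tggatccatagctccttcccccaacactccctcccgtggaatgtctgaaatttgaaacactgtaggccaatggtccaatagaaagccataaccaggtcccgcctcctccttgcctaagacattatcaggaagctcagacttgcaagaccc
Mgst1, chr4:172760780-172760929, plus strand: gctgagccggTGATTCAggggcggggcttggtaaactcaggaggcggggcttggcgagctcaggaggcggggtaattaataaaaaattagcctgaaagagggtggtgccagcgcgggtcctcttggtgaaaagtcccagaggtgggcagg
Counted from the start, the Gstp1 window holds the core TGACTCAGC at -61 to -53, and the AP-1 match TGACTCA at -61 to -55 lies inside it. The Gsta3 window holds the core TGACTTCGC at -17 to -9, and a second Gsta3 window has neither motif. The Mgst1 window holds TGATTCA at -140 to -134, a match to the loose AP-1 pattern only. Neither motif was found in the windows of Gstm2, Gstm1, Gsta4 and Gstk1. Of 33469 such windows in the rat genome 12.1% hold the antioxidant core and 7.33% the AP-1 letters, so a match is a description of the sequence alone.

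**Figure D1:**
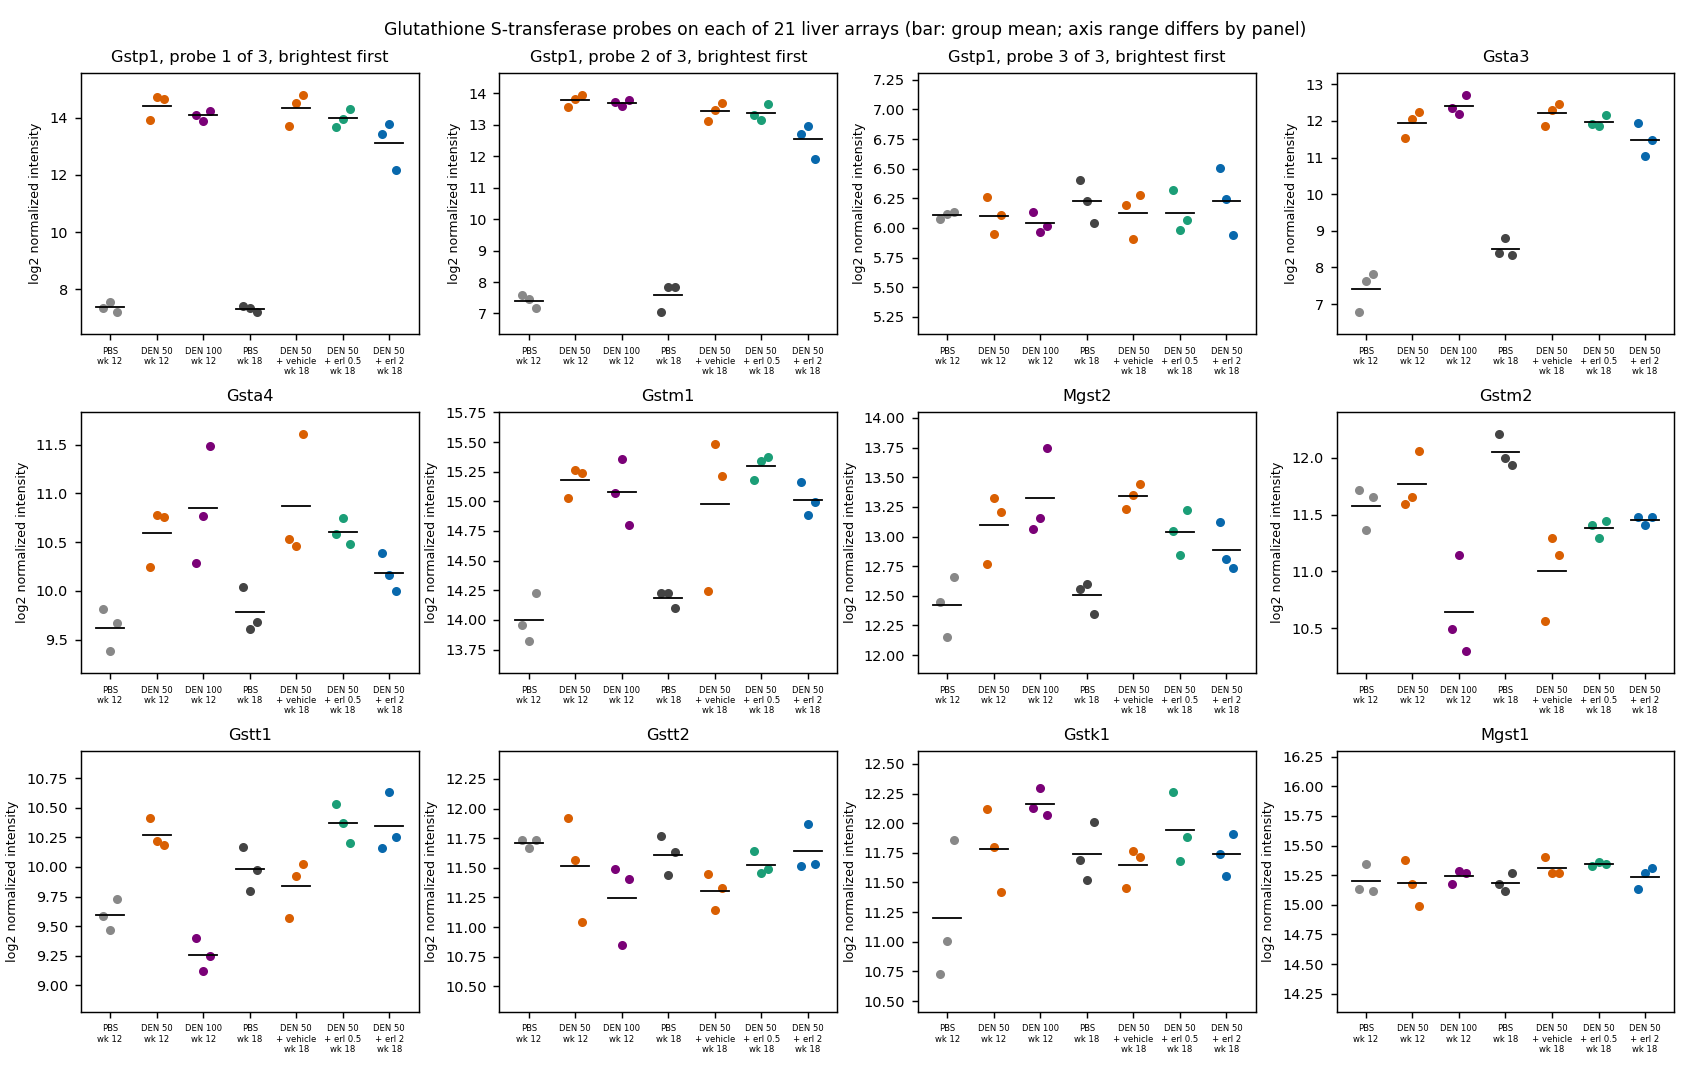
Log2 normalized intensity of the 12 probes on each of the 21 arrays, with 3 points and a bar at the mean for each of the 7 groups. Gstp1 probes 1 and 2 and Gsta3 are low in the 6 PBS arrays and high in all 15 DEN arrays, whereas Mgst1 stays between 14.99 and 15.40 throughout.

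Gstp1, the pi class enzyme, went from a low level in PBS liver to among the highest signals in DEN liver. On the brightest probe (ILMN_1376479) the PBS arrays of week 12 read 7.36, 7.55 and 7.19. The DEN 50 arrays read 13.91, 14.74 and 14.64, and the DEN 100 arrays 14.11, 13.89 and 14.25. Every DEN array of week 12 lay above every PBS array by more than 6 log2 units, and the DEN doses overlapped. Gstp1 rose by 7.06 ± 0.31 with DEN 50 (adjusted p = 2.4e-12), which is 134-fold on this scale and the highest change of all 19685 probes. It rose by 6.72 ± 0.31 with DEN 100, the third highest. The difference between the doses was -0.35 ± 0.31 (95% interval -0.99 to 0.30, adjusted p = 0.66).

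At week 18 the PBS arrays read 7.40, 7.34 and 7.21 and the vehicle arrays 13.70, 14.52 and 14.80. Gstp1 rose by 7.02 ± 0.31 with DEN 50 and vehicle, much as at week 12, and the PBS level did not overlap the DEN level at either time. In order of mean level the groups were DEN 50 at week 12 (14.43), DEN 50 with vehicle (14.34), DEN 100 (14.08), erlotinib 0.5 (13.98), erlotinib 2 (13.13), PBS at week 12 (7.37) and PBS at week 18 (7.32). Neighbours in this order overlapped except at the step between erlotinib 2 and PBS. The spread of Gstp1 within groups, a pooled SD of 0.45, was wider than that of 97.9% of probes.

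The second Gstp1 probe (ILMN_1366294) followed the first, with r = 0.995 over the 21 arrays. It read 7.60, 7.46 and 7.16 in PBS and 13.55, 13.82 and 13.95 in DEN 50 at week 12. It rose by 6.37 ± 0.24 with DEN 50 and by 6.30 ± 0.24 with DEN 100, and by 5.85 ± 0.24 with DEN 50 and vehicle at week 18. The third probe (ILMN_1530215), which the platform annotation also assigns to Gstp1, did not follow them. Its levels of 5.91 to 6.50 on all 21 arrays lay around 6.38, the median of all normalized values, and its changes against PBS were -0.01, -0.07 and -0.10. A signal that low gives no measure of Gstp1. The annotation places Gstp1 on chromosome 1 at 210767237 to 210770242 (GRCr8).

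Gsta3, an alpha class enzyme whose RefSeq record also carries the synonyms Gsta5 and Yc2, came next in size. It read 6.77, 7.62 and 7.83 in PBS and 11.53, 12.06 and 12.24 in DEN 50 at week 12. The DEN 100 arrays read 12.35, 12.20 and 12.71, so the doses overlapped and both lay far above PBS. Gsta3 rose by 4.53 ± 0.25 with DEN 50 (adjusted p = 1.1e-10) and by 5.01 ± 0.25 with DEN 100. At week 18 PBS read 8.41, 8.81 and 8.33 and vehicle 11.87, 12.31 and 12.47, a rise of 3.71 ± 0.25. PBS livers of week 18 lay above those of week 12 without overlap, by 1.10 ± 0.25, which did not pass (adjusted p = 0.21). The Gsta3 gene lies on chromosome 9 at 31154989 to 31180653. Alpha class genes are close in sequence, and a probe may also catch a paralog, so the identity of a single alpha or mu gene is uncertain.

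Gsta4, the alpha enzyme known for conjugating 4-hydroxynonenal from lipid peroxidation, moved much less. It read 9.81, 9.38 and 9.67 in PBS, 10.24, 10.78 and 10.76 in DEN 50 and 10.28, 10.77 and 11.49 in DEN 100. All DEN arrays of week 12 exceeded all PBS arrays, and the doses overlapped. Gsta4 rose by 0.97 ± 0.27 with DEN 50 (adjusted p = 0.021), by 1.22 ± 0.27 with DEN 100 and, against 10.04, 9.61 and 9.68 in PBS of week 18, by 1.09 ± 0.27 with vehicle (10.54, 10.46 and 11.61). The DEN 50 call was lost without array PBS_108 (adjusted p = 0.093), DEN 50 array 14 (0.085) or DEN 50 array 51 (0.089), and the vehicle call without vehicle array 69 (0.72, adjusted p = 0.054).

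Gstm1, a mu enzyme that is among the most abundant transferases of normal liver, was already bright in PBS livers, at 13.95, 13.82 and 14.23. DEN 50 arrays read 15.03, 15.27 and 15.24 and DEN 100 arrays 15.07, 15.36 and 14.80, all above PBS. Gstm1 rose by 1.18 ± 0.21 with DEN 50 (adjusted p = 0.00061) and by 1.07 ± 0.21 with DEN 100. The highest Gstm1 value, 15.48, was also the highest on any array, so the top of the scale may hold these changes down. At week 18 PBS read 14.23, 14.23 and 14.10 and vehicle 14.24, 15.48 and 15.21. The low value belonged to vehicle array 24, and the change of 0.79 ± 0.21 (adjusted p = 0.0099) was 1.15 without that array. It was not called without vehicle array 59 (0.55, adjusted p = 0.085) or 69 (0.68, adjusted p = 0.058).

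Mgst2, a membrane enzyme that can also make leukotriene C4, rose alongside by smaller steps. It read 12.44, 12.15 and 12.66 in PBS, 12.77, 13.33 and 13.20 in DEN 50 and 13.06, 13.16 and 13.74 in DEN 100 at week 12. No DEN array of week 12 reached down to a PBS array. Mgst2 rose by 0.68 ± 0.18 with DEN 50 (adjusted p = 0.015) and by 0.90 ± 0.18 with DEN 100. At week 18 it rose by 0.84 ± 0.18 (adjusted p = 0.0016), from 12.56, 12.60 and 12.35 in PBS to 13.23, 13.35 and 13.44 with vehicle. The DEN 50 call was lost without array PBS_108 (adjusted p = 0.09), DEN 50 array 14 (0.084) or DEN 50 array 51 (0.067).

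Gstm2 and Gstt1 were the 2 members that differed between the DEN doses. Gstm2, the other mu enzyme, read 11.71, 11.37 and 11.65 in PBS, 11.60, 11.66 and 12.06 in DEN 50 and 10.49, 11.14 and 10.30 in DEN 100. DEN 50 overlapped PBS, and all DEN 100 arrays lay below both. Gstm2 had a change of 0.19 ± 0.19 with DEN 50 (adjusted p = 0.64) and fell by 0.93 with DEN 100 (SE 0.19, adjusted p = 0.00083). It was lower in DEN 100 than in DEN 50, at -1.13 ± 0.19 (adjusted p = 0.00041).

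Gstt1, a theta enzyme that acts on small halogenated compounds, read 9.59, 9.46 and 9.73 in PBS, 10.42, 10.22 and 10.18 in DEN 50 and 9.40, 9.12 and 9.25 in DEN 100. The 3 groups did not overlap, with DEN 50 on top and DEN 100 at the bottom. Gstt1 rose by 0.68 ± 0.15 with DEN 50 (adjusted p = 0.0035), and DEN 100 was at -0.34 ± 0.15 against PBS (adjusted p = 0.12). Between the doses the difference was -1.02 ± 0.15 (adjusted p = 7.4e-05). Both dose differences were called under every alternative tried, including each array left out in turn. Gstt2 was also called lower in DEN 100 with median scaling, at -0.63 (adjusted p = 0.019) from -0.26.

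At week 18 Gstm2 was lower in DEN 50 livers too. PBS read 12.21, 12.00 and 11.93 and vehicle 10.56, 11.29 and 11.15, a fall by 1.05 (SE 0.19, adjusted p = 0.00037) with no overlap. Without vehicle array 24, the lowest of the 3, the change was -0.82 (adjusted p = 0.0033). Gstt1 read 10.17, 9.79 and 9.98 in PBS and 9.57, 9.92 and 10.03 with vehicle, a change of -0.14 ± 0.15 (adjusted p = 0.61) that was -0.01 without array 24. The Gstm2 falls against PBS at both times were not called when arrays were scaled to their medians, though they were about as large, at -0.89 and -0.91 (adjusted p = 0.19 each).

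Of the remaining members Gstk1 was called in DEN 100, and Gstt2 and Mgst1 were called in no comparison here. Gstk1 was spread widely in PBS livers of week 12, at 10.73, 11.01 and 11.86, against 12.12, 11.80 and 11.42 in DEN 50 and 12.13, 12.29 and 12.07 in DEN 100. It rose by 0.96 ± 0.23 with DEN 100 (adjusted p = 0.0027), whereas DEN 50 was at 0.58 ± 0.23 (adjusted p = 0.11) and vehicle at week 18 at -0.09 ± 0.23 (0.00 without vehicle array 24). Without array PBS_110, the highest, the DEN 50 value was called at 0.91 (adjusted p = 0.005).

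Gstt2, the second theta enzyme, read 11.73, 11.67 and 11.74 in PBS, 11.92, 11.57 and 11.04 in DEN 50 and 11.49, 10.85 and 11.41 in DEN 100. Its changes were -0.20 ± 0.18 and -0.46 ± 0.18 (adjusted p = 0.60 and 0.08), and only the DEN 100 group lay wholly below PBS. Mgst1, the microsomal enzyme of the endoplasmic reticulum and outer mitochondrial membrane, had the steadiest signal of the members, with a pooled SD of 0.10. Its levels of 14.99 to 15.40 are near the top of the scale, where a change could be missed. Its changes against PBS of -0.01, 0.05 and 0.13 had 95% intervals within -0.24 to 0.35, and with bright-probe scaling they read -0.59, -0.36 and -0.40, none of them called.

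Counted over the 12 probes, DEN 50 at week 12 had 7 higher and none lower than PBS, while 5.73% of all probes were called higher and 5.1% lower. The 7 probes stood for 6 genes, Gstp1, Gsta3, Gsta4, Gstm1, Gstt1 and Mgst2, and the same 7 did not overlap PBS, where 13% of all probes lay above and 13.2% below it without overlap. The median change over the 12 probes was 0.68, beside -0.02 over all probes. DEN 100 had 7 higher (Gstp1 on 2 probes, Gsta3, Gsta4, Gstm1, Gstk1 and Mgst2) and 1 lower (Gstm2), with 11.4% and 9.77% of all probes called in those directions and medians of 0.93 and -0.01. Without overlap 7 lay above and 3 below PBS (Gstm2, Gstt1 and Gstt2), against 15.8% and 14.8% of all probes. Both comparisons used the same PBS arrays. Between the doses 2 probes were lower in DEN 100 and none higher, with 4.29% and 5% of all probes called. DEN 50 with vehicle at week 18 had 6 higher and 1 lower, against 9.42% and 8.69% of all probes, with medians of 0.46 and -0.03. Without overlap 6 lay above and 1 below PBS, against 14.7% and 16% of all probes. Other scalings ended some of these calls. With bright-probe scaling DEN 50 at week 12 gave Gsta4 0.91 (adjusted p = 0.066), close to its value here, but Gstm1 0.60 (0.089) and Mgst2 0.43 (0.14), well under theirs. DEN 100 gave Gstk1 0.70 (0.085) and Mgst2 0.61 (0.099), and vehicle at week 18 gave Gstm1 0.24 (0.40) and Mgst2 0.52 (0.17). With median scaling the lost calls kept changes of a like size. Both Gstm2 falls were lost, at -0.89 in DEN 100 and -0.91 at week 18 (0.19 each), and so were several rises. The lost rises were Mgst2 in DEN 50 at 0.97 (0.056), Gstk1, Gstm1 and Mgst2 in DEN 100 at 0.92, 0.91 and 0.83 (0.078, 0.055 and 0.087), and Gstm1 and Mgst2 at week 18 at 0.64 and 0.92 (0.22 and 0.057).

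**Figure D2:**
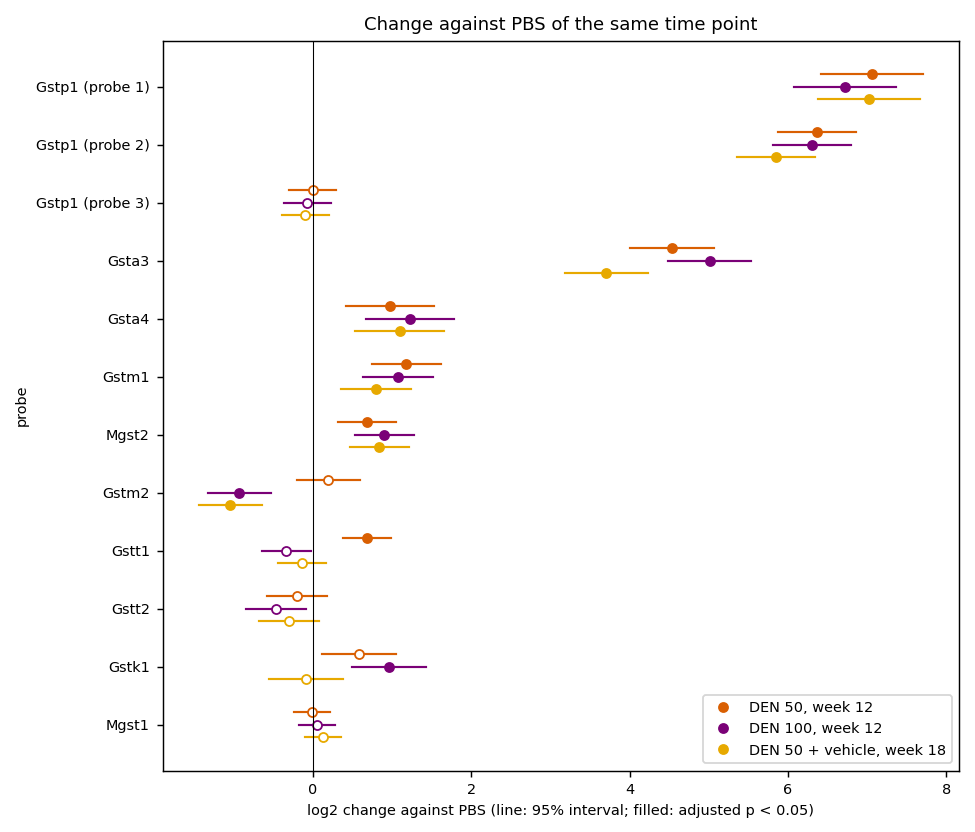
Log2 change of each probe against PBS of the same time point, with 95% intervals, for DEN 50 and DEN 100 at week 12 and DEN 50 with vehicle at week 18. Filled points passed an adjusted p of 0.05; Gstp1 probes 1 and 2 and Gsta3 lie between 3.71 and 7.06, the other called rises between 0.68 and 1.22, and Gstm2 at -0.93 and -1.05 in 2 of the 3 comparisons.

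Time alone moved no member past the threshold. In PBS livers, week 18 against week 12, limma called 0 of the 12 probes at an adjusted p, with 0.0102% of all probes called. At an unadjusted p under 0.05 it counted 4, namely Gsta3, Gstm2, Gstt1 and Gstk1, where 8.10% of all probes had such a p. In DEN 50 livers, vehicle at week 18 against DEN 50 at week 12, 0 of 12 were called (0.533% of all probes) and 2 had an unadjusted p under 0.05, as had 11.4% of all probes. These were Gstm2 at -0.77 ± 0.19 (adjusted p = 0.074) and Gstt1 at -0.43 ± 0.15 (adjusted p = 0.21), which were -0.55 and -0.30 without vehicle array 24. Both lay below DEN 50 of week 12 without overlap, as did 8.08% of all probes, while no member and 8.34% of all probes lay wholly above it. The rats of week 18 had also had vehicle injections, so time and vehicle cannot be told apart here.

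The test of whether the DEN 50 effect differed between the times gave 0 calls among the 12 probes (0.234% of all probes) and 4 at an unadjusted p under 0.05, as had 12.7% of all probes. Gstm2 came nearest, at -1.24 ± 0.27 (adjusted p = 0.052), followed by Gstt1 at -0.82 ± 0.21 (adjusted p = 0.089). Gsta3 stood at -0.83 (adjusted p = 0.34) and Gstk1 at -0.67 ± 0.32 (adjusted p = 0.39). Gstm2 passed under 4 of the alternatives, with adjusted p of 0.041 to 0.048, and without vehicle array 59 (-1.39, adjusted p = 0.031). Without array 24 it was at -1.01 (adjusted p = 0.095).

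Erlotinib was compared with vehicle in DEN 50 livers at week 18. At 2 mg/kg Gstp1 was lower. The vehicle arrays read 13.70, 14.52 and 14.80 on the brightest probe and the erlotinib 2 arrays 13.45, 13.77 and 12.17. The highest erlotinib array lay just above the lowest vehicle array, and rat 31 lay well below the other arrays. Gstp1 fell by 1.21 on this probe (SE 0.31, adjusted p = 0.028). On the second probe, where vehicle read 13.11, 13.46 and 13.70 and erlotinib 2 read 12.71, 12.97 and 11.91 with no overlap, it fell by 0.89 (SE 0.24, adjusted p = 0.036). These 2 probes were the only ones of 12 called, while 2.08% of all probes were called lower and 1.89% higher.

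The Gstp1 call rested on single arrays and on the processing. Without erlotinib rat 31 the changes were -0.74 (adjusted p = 0.19) and -0.58 (adjusted p = 0.23). The adjusted p rose to 0.09 and 0.086 without vehicle array 59 and to 0.15 and 0.16 without vehicle array 69. Without vehicle array 24 the changes were -1.53 (adjusted p = 0.0065) and -1.05 (adjusted p = 0.024). On the authors' normalized table the values were -1.12 and -0.84 (adjusted p = 0.053 and 0.052). Erlotinib 2 livers stayed far above PBS for Gstp1, by 5.81 ± 0.31.

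At 0.5 mg/kg Gstp1 read 13.69, 13.95 and 14.30, inside the vehicle range except for 1 array just below it, and its change was -0.36 ± 0.31 (95% interval -1.0 to 0.29, adjusted p = 0.76). Without vehicle array 24 it was -0.68 (adjusted p = 0.66). Between the erlotinib doses Gstp1 differed by -0.85 ± 0.31 (adjusted p = 0.41) and on the second probe by -0.84 ± 0.24 (adjusted p = 0.19). The smaller dose called 0 of the 12 probes by limma (0.137% of all probes) and 1, Gstt1, at an unadjusted p under 0.05, as had 11.1% of all probes. The comparison of the doses called 0 (0.0813% of all probes) and 2, both Gstp1, at an unadjusted p under 0.05, as had 7.99% of all probes.

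The other members were not called in either erlotinib comparison, though Gsta3 and Gstt1 passed with erlotinib 2 under some alternatives. Gsta3 did so with array weights (-0.82, adjusted p = 0.036), and Gstt1 with the 60th percentile filter (adjusted p = 0.041), with the brightest probe of each gene (0.048) and without erlotinib rat 27 (0.60, adjusted p = 0.048). With erlotinib 2, Gsta3 read 11.94, 11.04 and 11.48 (-0.73 ± 0.25, adjusted p = 0.13), overlapping vehicle. Gsta4 read 10.38, 10.17 and 9.99, all below vehicle, at -0.69 ± 0.27 (adjusted p = 0.19). Mgst2 read 13.12, 12.81 and 12.74, also below vehicle, at -0.45 ± 0.18 (adjusted p = 0.20). Gstm2 (11.48, 11.41 and 11.48) and Gstt1 (10.16, 10.63 and 10.25) lay above every vehicle array, at 0.45 ± 0.19 (adjusted p = 0.24) and 0.51 ± 0.15 (adjusted p = 0.056). Without vehicle array 24 they were 0.23 (adjusted p = 0.70) and 0.37 (adjusted p = 0.26). With Gstt2 (11.52, 11.87 and 11.53, adjusted p = 0.44) 3 probes lay wholly above vehicle and 3 wholly below it, where 9.36% and 10.4% of all probes did.

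With erlotinib 0.5, Gstt1 read 10.53, 10.37 and 10.20 and had a change of 0.53 ± 0.15 (adjusted p = 0.15). Gstm1 read 15.18, 15.34 and 15.38 with erlotinib 0.5 and 15.16, 14.89 and 14.99 with erlotinib 2. Its changes of 0.32 and 0.03 against vehicle became -0.05 and -0.32 without vehicle array 24, and none was called. Against PBS of week 18, which the vehicle comparison also used, erlotinib 0.5 had 6 probes higher and 1 lower (7.95% and 7.44% of all probes). The erlotinib 0.5 calls on Gsta4 (adjusted p = 0.041) and Mgst2 (0.046) were lost on the authors' table, without background correction and with both scalings. Leaving out any 1 of the arrays compared left 5 calls. Erlotinib 2 had 4 higher and none lower (3.32% and 2.29%), with Gsta3 at 2.97 ± 0.25 and Gstm1 at 0.83 ± 0.21. That Gstm1 call was lost without any 1 of the PBS arrays of week 18 (adjusted p = 0.055 to 0.081) and without erlotinib rat 27 (0.089) or 31 (0.068).

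**Figure D3:**
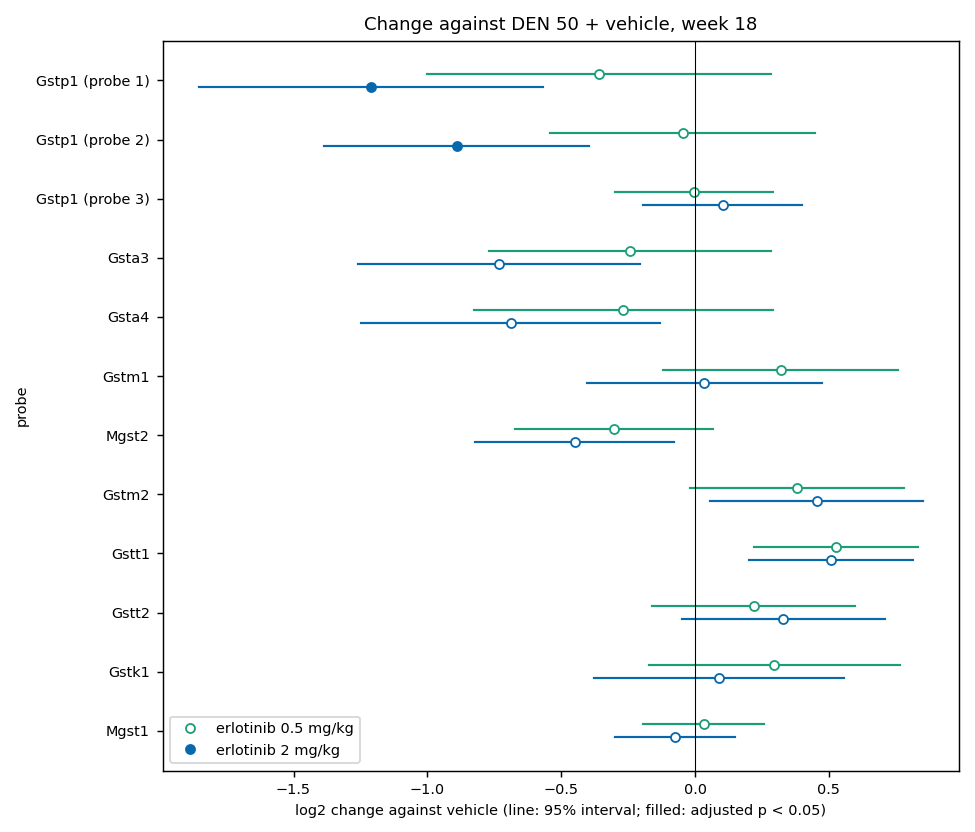
Log2 change of each probe against DEN 50 with vehicle at week 18, with 95% intervals, for erlotinib at 0.5 and 2 mg/kg. The called values are Gstp1 probes 1 and 2 with erlotinib 2, at -1.21 and -0.89 on the log2 scale.

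Several markers of bile duct cells, which express Gstp1 in normal rat liver, were also higher in DEN livers. Of 7 measured cholangiocyte markers 4 were higher in DEN 50 (Krt19, Epcam, Spp1 and Cd24), 7 in DEN 100 and 4 in DEN 50 with vehicle, and none was lower. Their summed intensity was 752 to 1194 in PBS and 2931 to 5733 in DEN 50 at week 12, and 7093 to 13850 in DEN 100. At week 18 it was 1010 to 1096 in PBS, 4474 to 9356 with vehicle, 4428 to 5987 with erlotinib 0.5 and 1984 to 3810 with erlotinib 2. With erlotinib 2 the markers Epcam, Spp1 and Cd24 fell and none rose, and 0 were called with median scaling and 2 with bright-probe scaling. Without vehicle array 24 there were 6 higher with vehicle and 4 lower with erlotinib 2. Krt7 lay near background in PBS livers of both times, at 6.32 and 6.23. The Spp1 call with DEN 50 at week 12 was lost on the authors' table (adjusted p = 0.13) and with bright-probe scaling (0.079). Between the DEN doses 3 of the 7 markers were higher in DEN 100, where Gstp1 was at -0.35 and not called. With median scaling the calls on Krt19 (1.27, adjusted p = 0.33) and Cd24 (1.19, adjusted p = 0.22) between the doses were lost. The shares of all probes called in each of these comparisons are given above.

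Markers of hepatocytes ran the other way, with a summed intensity of 254258 to 270836 in PBS and 155953 to 223951 in DEN 100 at week 12. Of 8 hepatocyte markers 4 fell with DEN 100 and 1 rose, 2 fell with DEN 50 at each time, and 1 rose with erlotinib 2. For this marker list and those that follow, the shares of all probes called are given above. Stellate and myofibroblast markers summed to 3134 to 5266 in PBS and 7533 to 10212 in DEN 50 at week 12, and to 9180 to 12482 with vehicle and 5005 to 6513 with erlotinib 2 at week 18. Of these 7 markers 3 were higher with DEN 50 at week 12 and 6 with vehicle at week 18, none was lower, and 5 fell with erlotinib 2. Macrophage sums were 2731 to 5161 in PBS and 6348 to 7654 in DEN 50 at week 12. The markers were mixed, with 2 of 6 higher, 1 lower and 3 not called. Their mean log2 levels overlapped, at 8.46 to 9.24 in PBS and 9.19 to 9.40 in DEN 50. The part of these cell types in the changes of the transferases was not tested.

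Other transferases and related proteins were read by a list of 27 genes, of which 20 had a probe and 18 were tested. With DEN 50 at week 12 there were 2 higher and 2 lower, with DEN 100 4 higher and 2 lower, and with vehicle at week 18 there were 5 higher and 2 lower. The median changes were 0.11, 0.10 and 0.18. Of all probes 5.73%, 11.4% and 9.42% were called higher in these comparisons, and 5.1%, 9.77% and 8.69% lower. Gsta2, a major alpha enzyme of hepatocytes, rose by 1.19 ± 0.17, 1.25 ± 0.17 and 0.85 ± 0.17 in these comparisons. The first and last of these were not called with bright-probe scaling (0.56 and 0.25), and the last also not with median scaling (0.65). The highest Gsta2 value in DEN 50 at week 12 and with vehicle, 15.48 in each group, was also the highest on any array. The top of the scale may therefore hold the Gsta2 changes down. The chloride channel relative Clic1 rose by 0.61 ± 0.15, 0.65 ± 0.15 and 0.53 ± 0.15, none of them called with bright-probe scaling. Its PBS means, 6.42 at week 12 and 6.50 at week 18, were near background (6.38), so the size of these rises is uncertain. Ltc4s, the leukotriene C4 synthase, was lower in all 3, with changes of -1.74, -1.78 and -1.57 (SE 0.27). Its means of 6.38, 6.34 and 6.22 in these DEN groups were at background (6.38), so the size of the falls is uncertain.

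Gstm5 and Gstm7, annotated as mu class genes, moved in opposite directions. Gstm7 had group means of 10.35 in PBS, 8.92 in DEN 50 and 7.41 in DEN 100 at week 12, with no overlap between the 3 groups. Its changes against PBS were -1.42 and -2.93 (SE 0.18), both called, and it was lower in DEN 100 than in DEN 50, at -1.51 ± 0.18 (adjusted p = 7.6e-06). At week 18 it stood at 10.70 in PBS, 8.03 with vehicle, 8.67 with erlotinib 0.5 and 9.49 with erlotinib 2. With erlotinib 2 it rose by 1.46 ± 0.18 over vehicle (adjusted p = 6.4e-05). Gstm5 was at 7.30, 7.67 and 9.00 at week 12, with a rise of 1.70 ± 0.22 in DEN 100, and at 7.02, 8.37, 7.78 and 7.33 in the week 18 groups in the same order. It fell by 1.04 with erlotinib 2 (SE 0.22, adjusted p = 0.0077), a call lost with median scaling (adjusted p = 0.088).

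Genes that make and recycle glutathione were higher more often than lower after DEN. Of 21 tested from a list of 24, 9 were higher and 2 lower with DEN 50, 12 and 6 with DEN 100, and 9 and 6 with vehicle at week 18. The median changes were 0.43, 0.64 and 0.48, beside -0.02, -0.01 and -0.03 over all probes. The shares of all probes called in these comparisons are given above. Gclc, the catalytic subunit of the rate-limiting enzyme of glutathione synthesis, rose by 1.48 ± 0.33, 1.70 ± 0.33 and 1.83 ± 0.33. Txnrd1, a thioredoxin reductase, rose by 1.50 ± 0.30, 1.53 ± 0.30 and 1.80 ± 0.30. The glutathione peroxidase Gpx2 rose by 2.80 ± 0.31, 4.13 ± 0.31 and 3.05 ± 0.31, and the secreted peroxidase Gpx3 by 2.07 ± 0.20, 3.87 ± 0.20 and 2.71 ± 0.20. Gpx2 means in PBS, 6.46 at week 12 and 6.52 at week 18, were near background (6.38), so the size of the Gpx2 rises is uncertain.

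The enzymes that make cysteine from homocysteine went down. Cth fell, with changes of -1.16, -2.14 and -1.62 (SE 0.30), of which the first was -0.85 and not called with median scaling (adjusted p = 0.34). Cbs was lower at -2.09 with DEN 100 and -2.24 with vehicle at week 18 (SE 0.32), and was at -0.82 with DEN 50 at week 12 (adjusted p = 0.13). With erlotinib 2 against vehicle 1 gene of this list was higher and 1 lower, where 1.89% and 2.08% of all probes were. The lower one was Gpx3, which fell by 1.84 (SE 0.20, adjusted p = 1.8e-05). Gclc was at -0.82 ± 0.33 (adjusted p = 0.21) and Gpx2 at -1.07 ± 0.31 (adjusted p = 0.059).

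Genes of conjugate export and processing split. Of 10 tested from a list of 16, 2 were higher and none lower with DEN 50, 3 higher and 5 lower with DEN 100, and 3 higher and 6 lower with vehicle at week 18. The median changes were -0.14, -0.71 and -0.54. The counts stand beside the shares of all probes given above. The basolateral efflux pump gene Abcc3 rose from 6.49 in PBS to 10.12 in DEN 50 and 9.67 in DEN 100, by 3.63 ± 0.19 and 3.18 ± 0.19, and by 3.26 ± 0.19 at week 18. Its PBS means of 6.49 at week 12 and 6.38 at week 18 were near background (6.38), so the size of the rises is uncertain. Dpep1, a dipeptidase that cleaves cysteinylglycine conjugates, rose by 0.68 ± 0.17, 1.88 ± 0.17 and 1.12 ± 0.17, though with bright-probe scaling the first and last were not called (adjusted p = 0.31 and 0.074). The Dpep1 means in PBS, 6.49 at week 12 and 6.33 at week 18, were also near background, which leaves the size of its rises uncertain. It fell by 0.78 with erlotinib 2 (adjusted p = 0.011), a call lost without vehicle array 24 (-0.56, adjusted p = 0.067) and with bright-probe scaling (adjusted p = 0.23). Nat8, which acetylates cysteine conjugates, fell by 2.71 with DEN 100 (SE 0.54) and the aminopeptidase Anpep fell by 1.57 (SE 0.34), the latter not called with median scaling (-1.38, adjusted p = 0.056). With DEN 50 at week 12 they stood at -0.81 and -0.08, not called. With vehicle at week 18 Anpep fell by 1.13, a call lost without vehicle array 24 (-0.66, adjusted p = 0.17) and with median scaling (-0.80, adjusted p = 0.35). Chac1, which degrades glutathione, fell by 0.86 with DEN 100 (SE 0.29, adjusted p = 0.037), a call lost on the authors' normalized table (-0.61, adjusted p = 0.073) and with median scaling (-0.81, adjusted p = 0.11). Its mean in DEN 100, 6.27, was at background.

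Some regulators of these genes were called, in both directions. Of 17 tested from a list of 22, 2 were higher and 1 lower with DEN 50, 2 higher and 3 lower with DEN 100, and 1 higher and 2 lower with vehicle. Of all probes 5.73%, 11.4% and 9.42% were called higher in these comparisons, and 5.1%, 9.77% and 8.69% lower. With counts this small, the list is not read as apart from all probes. The median changes were 0.12, -0.18 and -0.04. Mafk, a small partner of NRF2, rose by 0.95 ± 0.19 and 1.19 ± 0.19 at week 12. Nr1i3, the constitutive androstane receptor, rose by 1.32 ± 0.30 with DEN 50 and was at -0.56 ± 0.30 with DEN 100, so that it was lower in DEN 100 than in DEN 50 by a change of -1.88 ± 0.30 (adjusted p = 0.00021). The hepatocyte factor Cebpa was lower in all 3 comparisons, at -0.79 with DEN 50, -1.08 with DEN 100 and -0.78 with vehicle (SE 0.14). With median scaling the first and last were -0.52 and -0.51, not called (adjusted p = 0.064 and 0.060). Hnf4a fell by 0.72 with DEN 100, a call lost with bright-probe scaling (-0.78, adjusted p = 0.085), and was at -0.34 with DEN 50 (SE 0.16, adjusted p = 0.23). Keap1, the inhibitor of NRF2, was at 0.54 and -0.07 against PBS, neither called. It was lower in DEN 100 than in DEN 50, at -0.61 ± 0.19 (adjusted p = 0.048), a call lost on the authors' table (adjusted p = 0.064) and with bright-probe (0.18) or median scaling (0.22). Fos, an AP-1 subunit, rose by 0.57 with DEN 100 (SE 0.18), which was 0.36 and not called with bright-probe scaling (adjusted p = 0.51). Its means at week 12 were 6.29 in PBS and 6.86 in DEN 100, and those of Hnf4a 6.92 and 6.20. These levels are near background (6.38), so the size of both changes is uncertain. Nfe2l2, which encodes NRF2 and was looked up after the other values were seen, was at -0.24 and 0.21 (SE 0.15, adjusted p = 0.41 and 0.40).

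**Figure D4:**
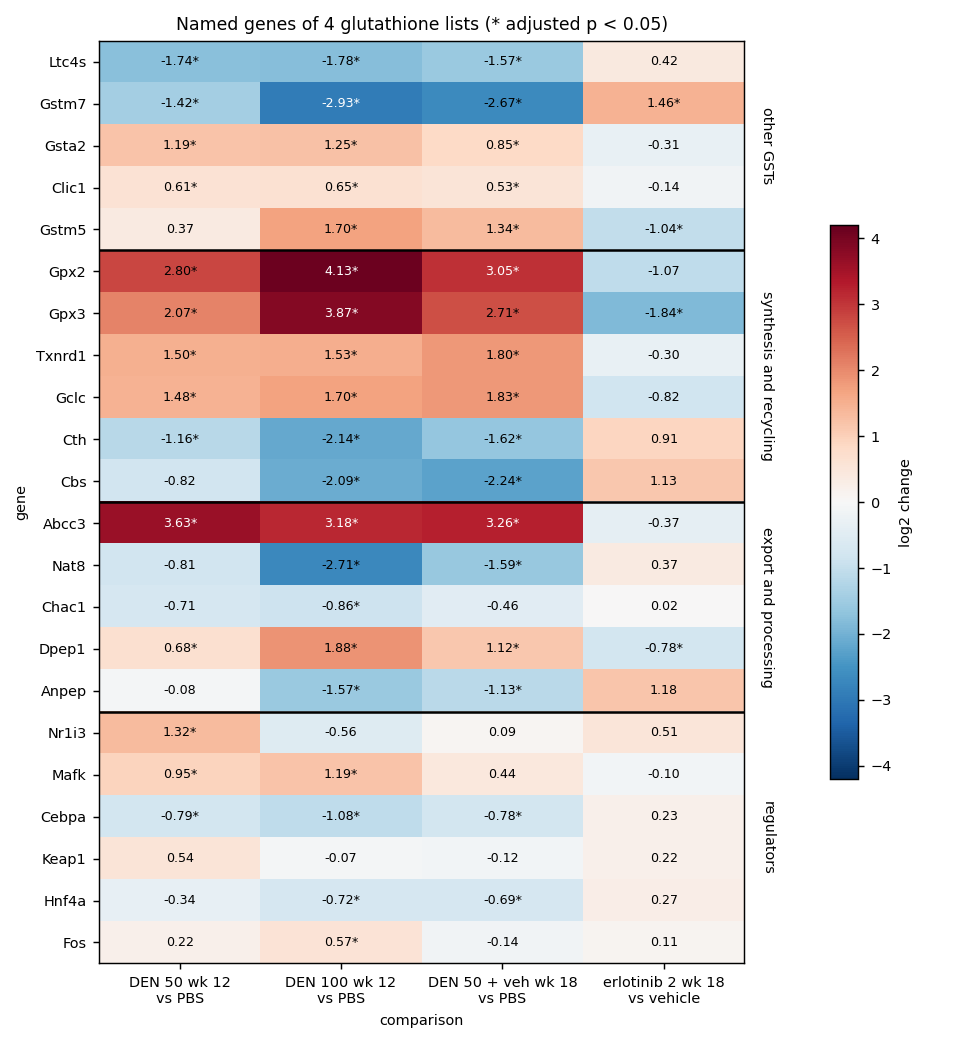
Log2 changes of 22 named genes from 4 lists (rows) in 4 comparisons (columns), shown by colour, with an asterisk at an adjusted p under 0.05. Gpx2, Gpx3 and Abcc3 carry the largest rises after DEN, Gstm7 the largest fall, and Gstm7 is the only one of the 22 that is called higher with erlotinib 2. Gpx2 and Abcc3 were near background in PBS, so the size of their rises is uncertain.

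Patterns over the 21 arrays were compared by Pearson correlation, which is a description, since all arrays share the 7 groups and the normalization. The named genes closest to Gstp1 were Pcp4 (r = 0.99), Abcc3 (0.98) and Ptgr1 (0.98). Those closest to Gsta3 were Abcb1b, Nqo1 and Car2 (0.97 each), and those closest to Gsta4 were Gsta2 (0.91), Txn1 (0.90) and Iah1 (0.90). Gstm1 was closest to Ephx1 (0.96), Gstm2 to Lhpp (0.93) and Gstt1 to Fkbp8 (0.93) and Nr1i3 (0.89). Between members, Gstp1 and Gsta3 correlated at 0.97 and Gstp1 and Gstm2 at -0.52. The closest gene to Gstt2, Gstk1 and Mgst1 reached 0.80, 0.80 and 0.81, and the closest to Mgst2 reached 0.91.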

How the data were processed

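Total RNA of rat liver was measured on 21 Illumina bead arrays, and each array was read as a separate liver. The raw table deposited by the authors holds intensity values on a linear scale, without detection p-values. The normalized table deposited by the authors holds intensity values with array medians of 135.5 to 136.8. For scanner software and normalization method: not given in the sources used here. All columns were used (0 left out).

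In R 4.3.3 with limma 3.58.1, raw values went through normexp background correction (offset 50), log2 and quantile normalization. A probe entered the fit if at least 3 arrays had it above their 40th percentile, and each probe was fitted on its own. Means of the 7 groups, taken from the labels, were estimated together (14 residual degrees of freedom), 12 contrasts were tested with limma's moderated test, and Benjamini-Hochberg adjustment covered all 19685 probes. Code was tested on simulated data. Signal over background and the number of arrays limit precision.

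The members and gene lists were chosen with earlier results of these data known. Named genes are the 10 members with every probe, the 4 genes of each of 4 pathway lists with the largest absolute change in DEN 50 and in DEN 100 at week 12, up to 3 named markers per cell type, and the 3 best correlated named genes per member, of which the text gives some. A list gene is read by its brightest probe. Nfe2l2, Krt7 and one of the cholangiocyte markers fall outside this rule and were chosen after their values were seen.

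Gene names come from the platform annotation. All 10 symbols matched RefSeq (assembly GRCr8), which supplied coordinates and promoters. Motifs were searched with Python 3.11.15 and pandas 2.3.3, and figures drawn with matplotlib 3.10.9 and numpy 2.4.6. Alternatives were the authors' table, no background correction, median scaling, scaling on bright probes only (over the 60th percentile throughout), leaving the filter out, a stricter filter (60th percentile, 6 arrays), array weights, a spread estimated with trend and robustness, only the arrays compared, a log2 change of at least 1, the brightest probe of each gene, and leaving out each array.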

Additional observations from a re-analysis of the deposited data

Results flagged for a closer look

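Gstm7, a mu class gene from the list of other transferases, was the only named gene whose DEN 50 effect differed between the time points by limma's interaction term. Its change against PBS was -1.42 ± 0.18 at week 12 and -2.67 ± 0.18 with vehicle at week 18, a difference of -1.25 ± 0.26 (adjusted p = 0.041). All 3 arrays of each DEN 50 group lay below all PBS arrays of the same time. The difference was -1.08 on the authors' normalized table (adjusted p = 0.067), -1.41 with median scaling (adjusted p = 0.42) and -1.27 with bright-probe scaling (adjusted p = 0.23), where it was not called. No member of the 10 was called in this test. Vehicle was given only to the DEN 50 group of week 18 among the groups compared, so time and vehicle cannot be told apart.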

How the results depend on the processing

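Of 401 repeats of called member values under the alternatives other than leaving out arrays, 351 stayed called, 50 did not and 0 changed sign. Gstp1 (its 2 brighter probes) and Gsta3 against PBS, and the lower Gstm2 and Gstt1 in DEN 100 than in DEN 50, were called under all of them. Of 1861 repeats of values not called, 17 were called and 101 changed sign uncalled. Counts of called member probes moved by more than 1.5 times as follows. With median scaling they were 4 for DEN 100 against PBS (from 8), 4 for vehicle against PBS (from 7), 4 for erlotinib 0.5 against PBS (from 7) and 0 for erlotinib 2 against vehicle (from 2). With bright-probe scaling they were 4 for DEN 50 against PBS (from 7), 4 for erlotinib 0.5 against PBS and 0 for erlotinib 2 against vehicle. Requiring a log2 change of at least 1 left 4 for DEN 50, 5 for DEN 100, 4 for erlotinib 0.5 against PBS and 1 for erlotinib 2 against vehicle. Erlotinib 2 against vehicle also gave 0 on the authors' normalized table and with only the arrays compared, and 1 with a trended and robust spread. The interaction gave 1 instead of 0, Gstm2, with the 60th percentile filter, the trended and robust spread, array weights and the brightest probe of each gene, and vehicle week 18 against DEN 50 week 12 gave 1 with array weights. The cause was not tested.

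Leaving out each array in turn gave 5 to 8 called probes for DEN 50 against PBS, 8 to 9 for DEN 100 against PBS, 2 in every case between the DEN doses, 5 to 7 for vehicle against PBS, 5 for erlotinib 0.5 against PBS and 3 to 4 for erlotinib 2 against PBS. It gave 0 to 2 for erlotinib 2 against vehicle, 0 for erlotinib 0.5 against vehicle, between the erlotinib doses and over time in PBS, and 0 to 1 for vehicle week 18 against DEN 50 week 12 and for the interaction. No paired analysis was possible because the groups compared share no replicate number. Of 158 calls on pathway list genes, 16 were lost on the authors' table, 66 with median scaling and 60 with bright-probe scaling, where 1 gene that is not named here changed sign. Gstm1, Mgst1 and Gsta2 near the top of the scale, and Gstp1 probe 3 near background, limit what their values can show. The same holds for Fos, and for Ltc4s, Chac1 and Hnf4a in DEN livers, which lay near background. It also holds for Abcc3, Gpx2, Dpep1 and Clic1, which lay near background in PBS livers.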
